A study of Mus musculus with 5 samples.

Results

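The genes described here encode splicing factors and neuronal RNA-binding proteins. They were chosen by symbol, by a rule that holds no measured value but was set with earlier results of these data known. The symbols were the numbered Srsf and all Hnrnp genes, Elavl1 to Elavl4, Ptbp1 to Ptbp3, Celf1 to Celf6, Nova1, Nova2, Mbnl1 to Mbnl3, Rbfox1, Rbfox2, Qk, Srrm1 to Srrm4, the Sf3a and Sf3b subunits, U2af1, U2af2, Khdrbs1 to Khdrbs3 and Rbm24. This choice took 71 of the 17739 genes in the table. They were read in 5 roles, comprising 11 SR proteins, 20 hnRNP proteins, 13 core factors of the 3′ splice site, 15 neuron-enriched regulators and 12 broad or non-neuronal regulators.

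RNA was profiled from medulloblastoma cells of the cerebellum of Math1-Cre;Gli2A mice, the offspring of Math1-Cre and R26;Gli2A parents, which received a DOX (doxycycline) diet from conception (E0) and in which GLI2 was active. Medulloblastoma arises in the cerebellum. The Math1 promoter drives Cre in progenitors of granule neurons, and GLI2 carries Sonic hedgehog signals to target genes. All 5 libraries, from tumours 1, 5, 8, 14 and 15, belong to this single group, so no condition was compared. The labels do not say that the numbers are separate animals, so every p below measures the spread between these samples, which may be partly technical.

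Splicing removes introns from a pre-mRNA. U2AF binds the polypyrimidine tract and the end of the intron, and the SF3A and SF3B complexes of the U2 snRNP then hold the branch site, while SR proteins mostly promote and hnRNP proteins often repress the use of nearby sites. Regulators limited to some tissues act on top of this machinery. In developing neurons PTBP1 gives way to PTBP2, and NOVA, RBFOX, neuronal ELAV (Hu), CELF and SRRM4 (nSR100) proteins direct neuronal exon choice.

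Promoter CpG content is a sequence feature that the choice by symbol did not use. RefSeq promoter windows of 300 bases around the transcription start (GRCm38.p6) were matched for 61 of the 71 genes. Celf4, Hnrnpll, Hnrnpul2, Khdrbs1, Khdrbs3, Ptbp3, Rbfox2, Sf3b4, Sf3b5 and U2af2 were not matched. Taking the most CpG-rich promoter of each gene, the 61 genes held a median of 27 CpG dinucleotides, against 20 for the table's genes with a promoter and 8 for all genes. A highest count favours genes with more windows, and the 61 genes had 101 windows, against 17239 for the table's 13736 genes. At least 20 CpG, a threshold chosen after the values were seen, were found in 51 of 61 genes (83.6%), against 50.6% of the table's genes. All 11 matched SR genes and all 10 matched core factors reached it, as did 16 of 18 hnRNP genes, 8 of 13 neuron-enriched and 6 of 9 broad or non-neuronal regulators. The sequences below are the lowest and highest of the whole set, Srrm3 with 5 CpG and Qk with 57, and beside them Rbfox1 with 7 from the neuron-enriched and Srsf6 with 45 from the SR group. Each reads 5′ to 3′ on the gene's strand, with CpG in capitals.
Srrm3, chr5:135817856-135818155, plus strand: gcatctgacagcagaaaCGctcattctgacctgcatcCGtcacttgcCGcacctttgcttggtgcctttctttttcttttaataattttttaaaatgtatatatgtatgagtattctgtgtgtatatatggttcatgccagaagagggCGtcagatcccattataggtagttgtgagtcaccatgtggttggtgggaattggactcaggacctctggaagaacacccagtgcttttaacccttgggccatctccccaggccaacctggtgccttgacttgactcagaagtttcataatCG
Rbfox1, chr16:7069585-7069884, plus strand: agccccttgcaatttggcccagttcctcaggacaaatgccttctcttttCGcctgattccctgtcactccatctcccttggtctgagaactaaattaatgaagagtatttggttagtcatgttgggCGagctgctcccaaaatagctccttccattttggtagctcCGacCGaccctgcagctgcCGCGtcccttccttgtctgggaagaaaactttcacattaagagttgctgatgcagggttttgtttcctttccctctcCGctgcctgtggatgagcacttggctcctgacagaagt
Srsf6, chr2:162931258-162931557, plus strand: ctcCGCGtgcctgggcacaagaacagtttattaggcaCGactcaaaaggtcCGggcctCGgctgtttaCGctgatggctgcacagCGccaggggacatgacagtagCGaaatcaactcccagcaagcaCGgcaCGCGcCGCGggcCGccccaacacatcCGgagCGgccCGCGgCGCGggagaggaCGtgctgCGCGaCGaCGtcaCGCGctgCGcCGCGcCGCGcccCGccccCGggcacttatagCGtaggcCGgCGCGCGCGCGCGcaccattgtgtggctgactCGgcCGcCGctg
Qk, chr17:10319312-10319611, minus strand: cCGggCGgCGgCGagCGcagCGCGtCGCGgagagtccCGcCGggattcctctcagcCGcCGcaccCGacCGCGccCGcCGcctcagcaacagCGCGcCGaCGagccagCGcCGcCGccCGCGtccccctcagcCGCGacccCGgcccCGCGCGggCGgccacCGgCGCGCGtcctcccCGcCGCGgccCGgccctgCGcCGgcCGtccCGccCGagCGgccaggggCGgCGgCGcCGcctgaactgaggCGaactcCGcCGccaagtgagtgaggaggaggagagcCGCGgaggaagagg

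In the Srsf6 and Qk windows the capitals run through most of the sequence, whereas in Srrm3 they are scattered. Rbfox1, which has further start sites, also has a second promoter in the table with 3 CpG. The printed Srrm3 and Rbfox1 windows lie inside their genes, whose annotated starts are at 135806890 and 5885355. Their low counts therefore describe internal start sites and not the 5′ ends of these genes. Of motifs sought on both strands, the GLI consensus GACCACCCA occurred in 0 of the 61 genes, and in 0.262% of the table's genes with a promoter. The CCAAT box (CCAAT) was present in 33 genes (54.1%, against 42.1%), among them 13 of 18 hnRNP genes and 4 of 11 SR genes. A GC box (GGGCGG) was present in 44 genes (72.1%, against 62.4%), among them 10 of 11 SR genes. Counted per promoter window, the shares were 48.5% against 37.3% for the CCAAT box and 63.4% against 56.7% for the GC box. GC boxes contain a CpG and so are not independent of the CpG count. A match is a description of letters, not evidence of binding.

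The deposited values are on a log2 scale, read here as regularised-log values, and their column medians lay between 8.51 and 8.58. They correct for library size but not for gene length, so levels of different genes are compared after subtracting log2 of the exon length in kilobases (the level per kb). The read depth of each library is unknown. All 6 granule neuron progenitor markers had means of at least 5, as had 13691 of the 17739 genes. Their median level per kb was 10.47, and Atoh1 was the lowest of them at 7.54, with a 2.81-fold range. Markers of other cells passed this low floor too, including all 7 oligodendrocyte and all 7 microglia markers. For each marker set the unlogged values were summed and log2 then taken, so the most abundant markers weigh most. This log2 summed level ran from 14.48 in tumour 1 to 15.86 in tumour 5 for the oligodendrocyte markers. For the microglia markers it ran from 12.71 in tumour 15 to 13.56 in tumour 5. In such bulk samples, fewer cells of a type and less RNA per cell cannot be told apart.

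All 71 genes had a mean of at least 5, as had 13691 of the 17739 genes, and most were strongly expressed. The median of their mean levels per kb was 9.46, against 6.48 for all genes with a length, and 67 of 71 lay above that median. A level per kb of at least 10 was reached by 24 of the 71 genes, where 4.59% of all genes reach it. The hnRNP genes stood highest with a median of 10.16, followed by the SR genes (9.96), the core factors (9.65), the neuron-enriched regulators (8.95) and the broad or non-neuronal regulators (8.65). Thus the general splicing machinery exceeded both regulator groups, in every tumour. Within each tumour the group medians were compared in 10 pairs, and all 10 kept 1 direction in 5 of 5 tumours. Medians that differ by more than their spread between tumours keep 1 direction by that alone, and no other gene groups were compared. The difference between hnRNP and neuron-enriched medians was 1.29 ± 0.22 (SD, n = 5), and that between SR and core factors 0.29 ± 0.06. The smallest differences were -0.21 ± 0.08 for SR minus hnRNP genes and 0.22 ± 0.17 for neuron-enriched minus broad regulators. Flipping the signs of the 5 differences in an exact two-sided permutation test gave p = 0.0625 for each, adjusted p = 0.0625 over 10 pairs, the smallest p that 5 tumours allow, so none can pass 0.05. With group means in place of medians 8 of 10 pairs kept 1 direction, the exceptions being SR minus core factors (0.01) and neuron-enriched minus broad (0.04), and with no length subtracted the latter turned to -0.39.

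**Figure D1:**
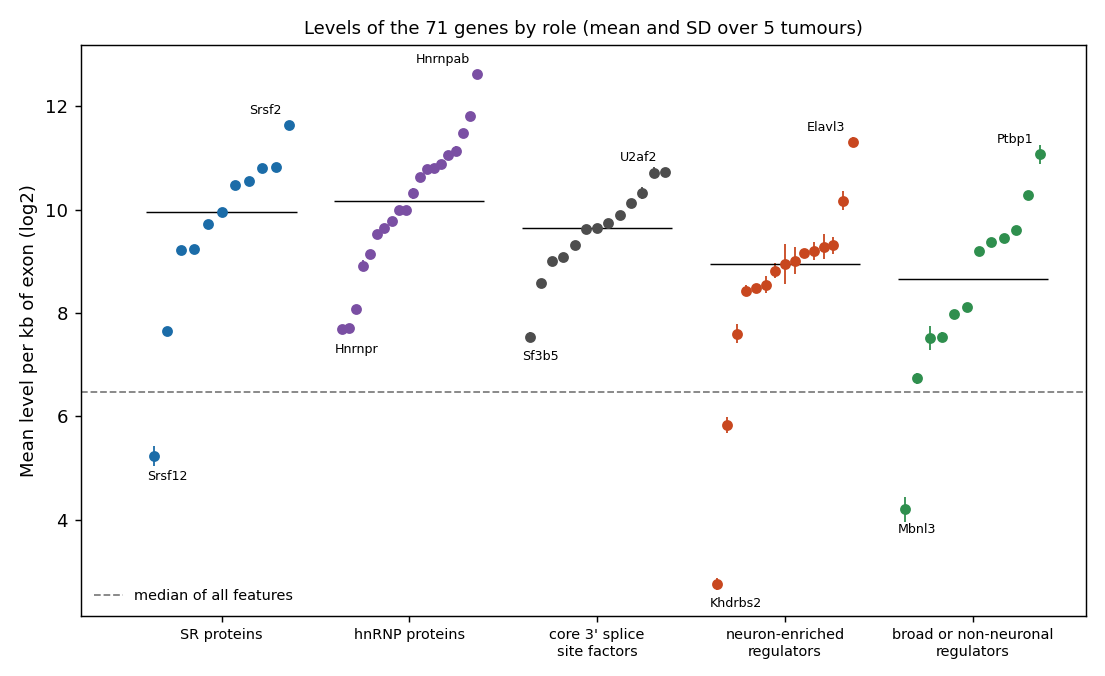
Mean level per kb of exon (log2) of each of the 71 genes by role, with the SD over 5 tumours as bars, the median of each role as a solid line and the median of all genes as a dashed line. The hnRNP genes have the highest median (10.16) and Hnrnpab the highest level (12.63), while Khdrbs2 lies lowest (2.76).

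Among the SR proteins, which bind exonic enhancers through RNA recognition motifs and contact the spliceosome through their arginine-serine domains, Srsf2 was highest, with 11.65 ± 0.08 per kb. Its levels per kb in tumours 1, 5, 8, 14 and 15 were 11.65, 11.62, 11.71, 11.73 and 11.53. Srsf1, the factor first known as SF2/ASF, followed with 10.84, 10.83, 10.72, 10.91 and 10.80 in the same order. Srsf12 stood far below the family with 5.23, 5.11, 4.99, 5.29 and 5.50. The ranges of Srsf12 and of the other SR genes did not overlap in these tumours. Srsf10, its closest relative in the set and a splicing repressor when dephosphorylated, exceeded Srsf12 by 4.01 ± 0.21 per kb, in 5 of 5 tumours. The other SR genes lay between 7.66 (Srsf4) and 10.80 (Srsf6). Antisense genes overlap 25.3% of the exons of Srsf2 and 43.0% of those of Srsf4, and the strand setting of the counting is not given, so these levels may include antisense reads. Srsf3, which promotes mRNA export as well as splicing, lay below Srsf7 per kb (Srsf3 minus Srsf7, -0.51 ± 0.05) but above it with no length subtracted (0.64), and 31.5% of the 50-base words of Srsf3 recur in other genes.

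The hnRNP proteins coat nascent transcripts and include exonic silencer readers, binders of U-rich tracts and scaffold proteins. Hnrnpab was the highest of all 71 genes, with levels per kb of 12.66, 12.54, 12.66, 12.70 and 12.60 in tumours 1, 5, 8, 14 and 15. Hnrnpa0 was next, at 11.78, 11.75, 11.89, 11.92 and 11.73. An antisense gene overlaps 29.1% of the Hnrnpab exons. Hnrnpr and Hnrnpa1 were the lowest of the family per kb, and Hnrnpr averaged 7.69 ± 0.08. The place of Hnrnpr depends on its exon length of 22.2 kb. With no length subtracted it averaged 12.16, above several of the family, while Hnrnpa1 averaged 9.36. Hnrnpa1, a classic repressor of exon inclusion, averaged 7.71 ± 0.08 per kb, with 7.67, 7.70, 7.60, 7.77 and 7.79. Its relative Hnrnpa2b1 exceeded it by 3.44 ± 0.06, or 10.8-fold per kb. Of the 50-base words of Hnrnpa1, 46.4% recur in 18 other genes, 17 of them pseudogenes, so its level depends on how shared reads were counted. The same holds for Hnrnpf (49.0%), Hnrnpk (34.5%), Hnrnpm (28.8%) and Hnrnpa3 (28.2%).

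Several hnRNP relatives kept almost constant distances. Hnrnpl, which binds CA repeats, exceeded its paralog Hnrnpll by 2.58, 2.54, 2.55, 2.54 and 2.59 in the 5 tumours, a mean of 2.56 ± 0.02. Hnrnph1, a binder of G runs, exceeded Hnrnph2 by 1.91 ± 0.06. Hnrnpd (AUF1), known for binding AU-rich elements, lay below Hnrnpdl, at -0.78 ± 0.06 per kb from it, and the 2 genes are neighbours on chromosome 5, 54.6 kb apart. On the deposited scale the 3 highest means of the 71 genes were those of Srrm2 (14.40), Hnrnpu (14.34) and Hnrnpk (14.18). Hnrnpu, a nuclear scaffold protein, read 14.34, 14.33, 14.26, 14.43 and 14.33, so its tumours lay within 1.13-fold. Hnrnpk, a binder of C-rich tracts, read 14.19, 14.13, 14.19, 14.19 and 14.17. Apart from Khdrbs1, no member had a smaller SD than Hnrnpk (0.03).

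The core factors of the 3′ splice site were led by U2af2 and Srrm2. U2af2, which binds the polypyrimidine tract, had levels per kb of 10.74, 10.73, 10.72, 10.79 and 10.70. It exceeded U2af1, which reads the AG at the end of the intron, by 1.41 ± 0.05. Of the U2af1 50-base words 59.4% recur in other genes, as do 29.9% of those of U2af2. Srrm2, a large spliceosome protein of nuclear speckles, averaged 10.72 ± 0.11 per kb, with 10.67, 10.70, 10.58, 10.88 and 10.74. It exceeded Srrm1, a splicing coactivator, by 0.98 ± 0.11 in 5 of 5 tumours. Among the subunits of SF3A and SF3B, Sf3a2 was highest (10.32 ± 0.11 per kb) and Sf3b5 lowest (7.54 ± 0.09). Sf3b1, the branch site clamp, averaged 9.90 ± 0.03. The top place depends on the length used. With no length subtracted Sf3b1 was highest (13.40) and Sf3a2 averaged 11.73, while Sf3b5 stayed lowest (9.49). Subunits of 1 complex thus differed in mRNA level per kb, and 49.3% of the words of Sf3b4 recur in a pseudogene.

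Neuron-enriched regulators spanned the widest range of levels. Elavl3 (HuC), which stabilises and splices neuronal mRNAs, led with levels per kb of 11.42, 11.41, 11.26, 11.31 and 11.21. Celf3 followed with 10.43, 10.22, 10.19, 10.11 and 9.93. Khdrbs2 (SLM1), a STAR-family protein, was lowest of all 71 genes with 2.72, 2.74, 2.62, 2.78 and 2.94, so that only Elavl3 and Celf3 of the group passed 10. Its paralog Khdrbs3 (SLM2) exceeded Khdrbs2 by 6.19 ± 0.34, or 72.9-fold per kb, the largest difference of the 26 pairs. The ubiquitous STAR gene Khdrbs1 (Sam68) exceeded Khdrbs3 in turn by 1.34 ± 0.39. The regularised log pulls weakly expressed genes towards their means, so if the values are of that kind the spread of Khdrbs2, Celf6, Mbnl3 and Srsf12 may be understated.

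The PTB switch pair stood on the side of Ptbp1. Levels per kb of Ptbp1, the repressor of neuronal exons in progenitors and non-neuronal cells, were 10.93, 11.00, 11.27, 11.28 and 10.91 in tumours 1, 5, 8, 14 and 15. Ptbp2, its neural paralog, had 9.17, 9.12, 9.26, 9.15 and 9.11. No Ptbp2 value reached the lowest of Ptbp1, and Ptbp2 minus Ptbp1 was -1.76, -1.88, -2.01, -2.14 and -1.80, a mean of -1.92 ± 0.16, or 3.78-fold in favour of Ptbp1. Ptbp3 lay lower still, at -3.09 ± 0.16 from Ptbp1. Ptbp2 minus Ptbp1 was -1.32 with the longest transcript as length and -0.96 with no length subtracted. Its direction held, but its size depends on the length used. Antisense genes overlap 20.7% of the Ptbp1 exons.

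In the ELAV family all 3 neuronal members exceeded the ubiquitous Elavl1 (HuR) per kb in 5 of 5 tumours. The excess was 3.21 ± 0.11 for Elavl3, or 9.24-fold, and 1.20 ± 0.22 for Elavl4 (HuD). For Elavl2 (HuB) it was 0.64, 0.46, 0.07, 0.42 and 0.61 in the 5 tumours, nearly nothing in tumour 8. Elavl4 minus Elavl3 was -2.01 ± 0.14. With no length subtracted the mean excess over Elavl1 was 2.62 for Elavl3, 0.26 for Elavl4 and 0.12 for Elavl2. In tumour 8 Elavl4 (11.53) and Elavl2 (11.34) then lay below Elavl1 (11.59). Neuronal Hu transcripts thus stood above Elavl1 per kb in each tumour, while Ptbp2 stood below Ptbp1.

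Nova2, the NOVA paralog that prevails in cortex, exceeded Nova1, with Nova1 minus Nova2 at -0.71 ± 0.12. An antisense gene overlaps 31.7% of the Nova2 exons. Rbfox2, the broadly expressed RBFOX gene, exceeded the neuron and muscle gene Rbfox1 by 0.79 ± 0.12, with single differences of 0.63, 0.71, 0.91, 0.88 and 0.81. Srrm4, which activates neuronal microexons, exceeded Srrm3 by 0.93, 0.54, 0.86, 0.93 and 0.92, a mean of 0.84 ± 0.16. Tumour 5 alone lay apart there, with Srrm3 at its highest in that tumour.

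Among CELF genes, which bind GU-rich elements, order within the family was not settled for every pair. Celf3 exceeded the broad Celf1 by 0.72 ± 0.20 in 5 of 5 tumours. Celf4 minus Celf1 was -0.14, 0.30, -0.24, -0.46 and -0.30, so that 4 of 5 tumours had Celf1 higher and tumour 5 had Celf4 higher (mean -0.17 ± 0.29, exact sign-flip permutation p = 0.25, adjusted 0.25). Celf5 minus Celf4 was 0.09, -0.66, -0.10, -0.23 and -0.46 (mean -0.27 ± 0.29, exact sign-flip permutation p = 0.125, adjusted 0.13). Celf6 lay well below Celf5, at -3.18 ± 0.28 from it. Celf1 exceeded Celf2 by 0.26 ± 0.09 with the exon union as length, but the difference turned to -1.18 with the longest transcript and to -1.36 with no length. With the longest transcript Celf4 minus Celf1 also turned, to 0.83. The order of Celf1, Celf2 and Celf4 thus depends on the length used.

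Of the broad or non-neuronal regulators, Ptbp1 and Khdrbs1 were highest. Khdrbs1 had 10.32, 10.27, 10.29, 10.30 and 10.27 per kb. Qk (Quaking), which is strong in glia and directs myelin RNAs, averaged 9.38 ± 0.07. The MBNL proteins, sequestered by repeat RNA in myotonic dystrophy, were lower. Mbnl2 exceeded Mbnl1 by 0.81 ± 0.17, and Mbnl1 exceeded Mbnl3 by 2.54 ± 0.27. Mbnl3 was the lowest of the group with 3.93, 3.98, 4.32, 4.27 and 4.49. Rbm24, known as a muscle splicing factor, averaged 7.52 ± 0.24. In all, 24 of the 26 gene pairs kept 1 direction in 5 of 5 tumours, each with an exact sign-flip permutation p = 0.0625 and adjusted p = 0.0677 over 26 pairs. With the longest transcript 25 did so. Without length 21 did. Mixed directions were then found for Elavl2 minus Elavl1, Elavl4 minus Elavl1, Celf3 minus Celf1, Celf4 minus Celf1 and Mbnl2 minus Mbnl1. Celf5 minus Celf4 then kept 1 direction.

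**Figure D2:**
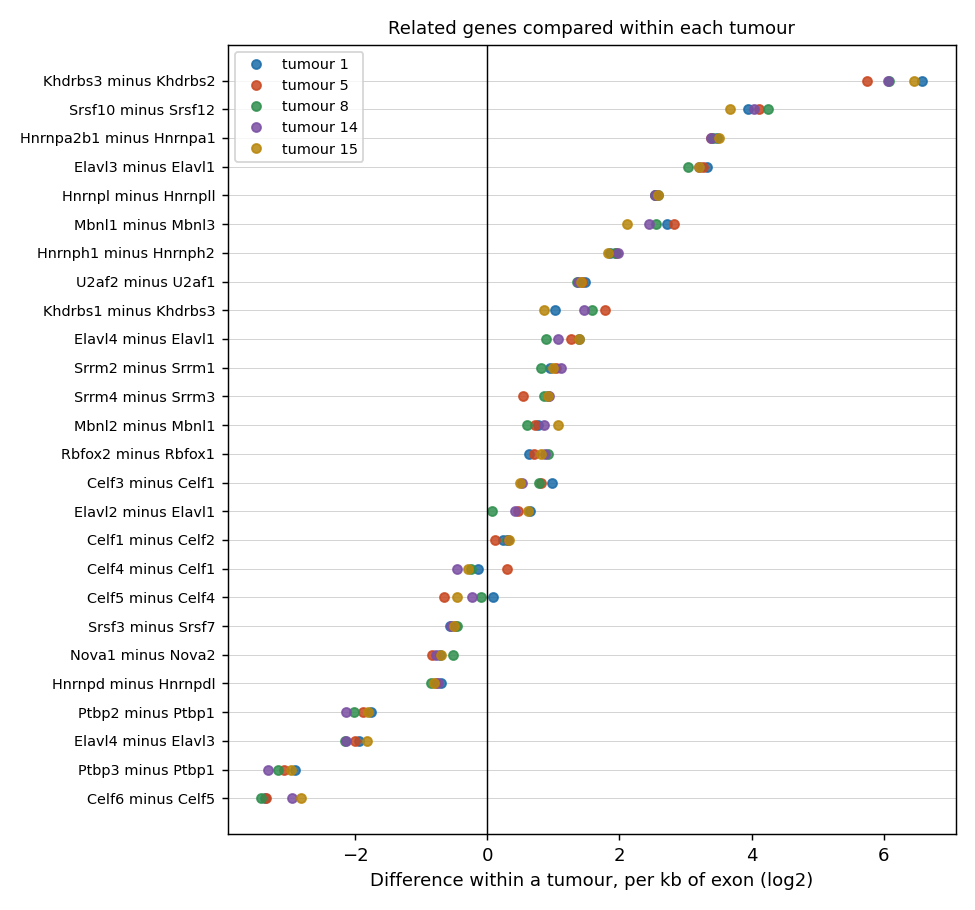
Difference within each tumour between 2 related genes, in log2 units per kb of exon, for 26 pairs, with 1 point per tumour. In 24 pairs all 5 points lie on 1 side of zero, while Celf4 minus Celf1 and Celf5 minus Celf4 cross it.

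Spread between tumours was small for the splicing machinery and larger for the neuron-enriched regulators. None of the 71 genes (0) ranged over 2-fold from the lowest to the highest tumour, where 3.79% of the 13691 tested genes (those with means of at least 5) did. At a mean of at least 10, where 62 of the 71 lie, the share over all genes was 1.59%, so a count of 0 is near the background. Their median SD was 0.076 log2 units, against 0.109 for the tested genes. For means of at least 10 the medians were 0.073 for these 62 genes and 0.086 for all, a smaller gap. A range under 1.25-fold was found for 58 of 71, against 59.8% of all. SDs above the median of the tested genes were found in 12 of 15 neuron-enriched regulators, 3 of 12 broad regulators, and in 1 gene each of the SR (11), hnRNP (20) and core (13) groups. The median SD of the neuron-enriched group was 0.165, against 0.066 for SR, 0.069 for hnRNP, 0.065 for core and 0.081 for broad genes. The steadiest gene was Khdrbs1, with an SD of 0.02.

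**Figure D3:**
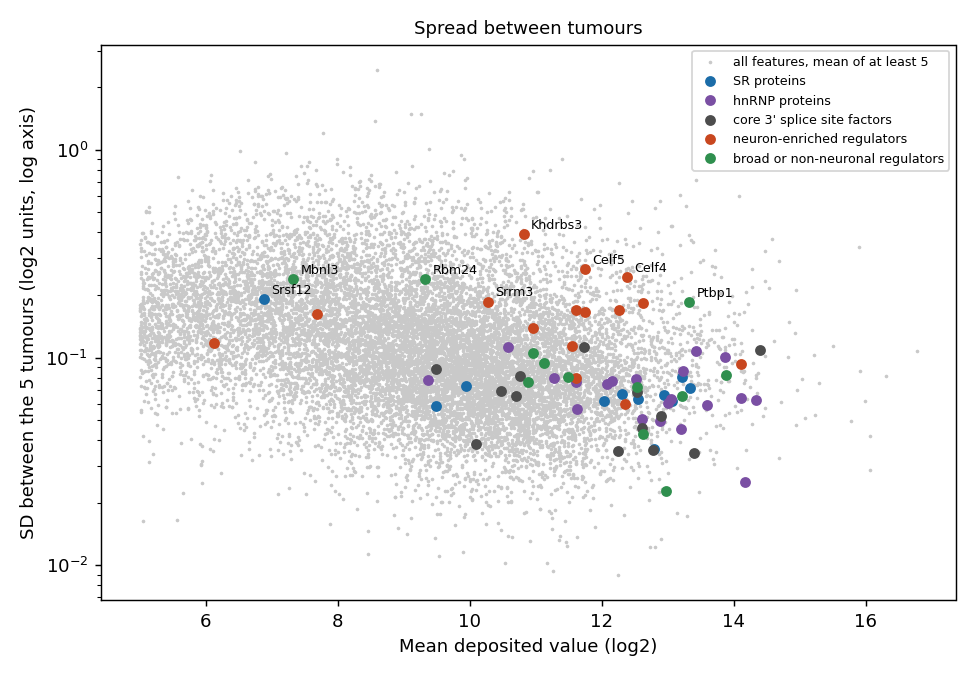
SD between the 5 tumours (log2 units, log axis) against the mean deposited log2 value, with grey points for all tested genes and coloured points for the 71 genes by role. Most coloured points lie low, and Khdrbs3 is the highest of them at 0.39.

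Khdrbs3 varied most, with deposited values of 11.17, 10.36, 10.58, 10.71 and 11.28 in tumours 1, 5, 8, 14 and 15. Tumours 1 and 15 were high and tumour 5 was lowest, a 1.89-fold range. Celf5 read 12.14, 11.78, 11.81, 11.63 and 11.41, highest in tumour 1 and lowest in tumour 15 (1.65-fold). Celf4 read 12.41, 12.80, 12.27, 12.22 and 12.24, so only tumour 5 and, less so, tumour 1 stood above the rest (1.50-fold). Rbm24 read 8.97, 9.38, 9.53, 9.53 and 9.22, lowest in tumour 1 (1.48-fold). Mbnl3 read 7.06, 7.10, 7.45, 7.40 and 7.62, with tumours 1 and 5 below the other tumours. These patterns differ from gene to gene, and Celf4 and Khdrbs3 were opposite in tumour 5.

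Srsf12 read 6.89, 6.77, 6.65, 6.95 and 7.15, highest in tumour 15. Srrm3 read 10.23, 10.55, 10.21, 10.35 and 10.06, highest in tumour 5. For Ptbp1 the values 13.17, 13.25, 13.52, 13.53 and 13.16 formed a higher pair, tumours 8 and 14, and a lower set of tumours 1, 5 and 15 (1.29-fold). Ptbp2 read 12.37, 12.32, 12.46, 12.34 and 12.30, within 1.11-fold, so that the Ptbp1 excess over Ptbp2 was largest in tumours 14 and 8. The 7 cell cycle markers had log2 summed levels of 15.43, 15.31, 15.56, 15.66 and 15.45, also highest in tumours 14 and 8. Their part in the Ptbp1 values was not tested. Celf3 read 12.88, 12.67, 12.64, 12.56 and 12.38, and Nova2 12.32, 12.43, 12.05, 12.40 and 12.12. Both were low in tumour 15, and Nova2 was lowest in tumour 8.

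**Figure D4:**
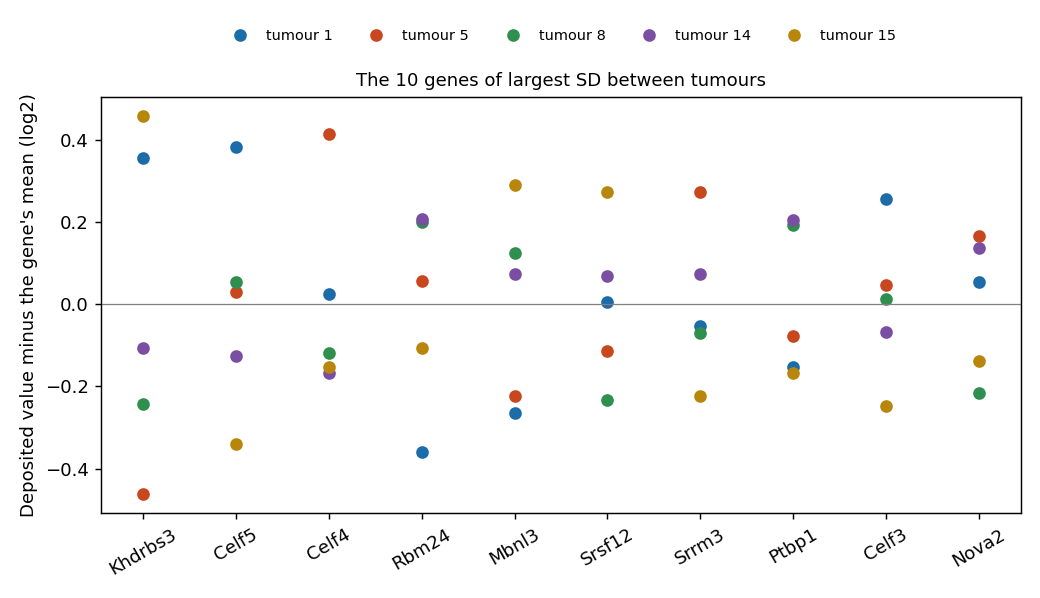
Deposited log2 value minus the gene's mean in each tumour for the 10 genes of largest SD among the 71. Khdrbs3 spans the widest range (1.89-fold), and Ptbp1 shows tumours 8 and 14 together above the other tumours.

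Members of the general machinery were shifted together in tumour 14, by small amounts. Of the 71 genes 32 were highest in tumour 14, where 15.8% of the tested genes were, and 2 were lowest there (13.0% of all). By role, tumour 14 was the highest for 9 of 11 SR genes, 10 of 13 core factors, 7 of 20 hnRNP genes, 4 of 12 broad regulators and 2 of 15 neuron-enriched regulators. A value above the median of the other 4 tumours was found in tumour 14 for all 11 SR genes, all 13 core factors, 17 of 20 hnRNP genes, 9 of 12 broad and 7 of 15 neuron-enriched regulators, or 57 of 71, against 50.2% of the tested genes. The sizes were small, the deviations from the other 4 tumours having a median of 0.10 for SR, 0.08 for hnRNP and 0.07 for core factors, near 1.07-fold for SR genes, while the median over all tested genes was 0.00. Strongly expressed genes in general leaned the same way. With a mean of at least 10, 28 of 62 of these genes were highest in tumour 14, against 23.6% of genes at that level, whose median deviation was 0.03. Of these 62, 48 lay above the median of the other 4 tumours in tumour 14, against 63.7% of genes at that level. The 7 cell cycle markers had a median deviation of 0.21 in tumour 14, and 5 of 7 were highest there. Their part in the shift was not tested.

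Within the machinery Srrm2 had the largest deviation in tumour 14, 0.19, and Hnrnpa0 the next, 0.15. Srrm2 read 14.36, 14.38, 14.27, 14.56 and 14.42 on the deposited scale. Srsf6, given because its promoter is printed above and not for the size of its shift (0.12), read 13.00, 13.06, 13.04, 13.17 and 13.06, so tumour 14 lay above the other 4, which were within 0.06. Counts in the other tumours were nearer the background. The 71 genes were highest in tumour 1 for 9 (20.2% of all tested), in tumour 5 for 7 (24.1%), in tumour 8 for 12 (18.5%) and in tumour 15 for 11 (21.4%). They were lowest in tumour 1 for 10 (16.9%), in tumour 5 for 20 (24.6%), in tumour 8 for 17 (22.6%) and in tumour 15 for 22 (22.9%). With each column centred on its median, 38 of 71 were highest in tumour 14, and 12 rather than 7 of the hnRNP genes. Centred on strongly expressed genes, 26 were. Leaving out tumour 8 or tumour 15 gave 11 hnRNP genes highest in tumour 14, and leaving out tumour 5 gave 4 neuron-enriched regulators. Without tumour 14 the highest counts became 18 in tumour 1, 12 in tumour 5, 24 in tumour 8 and 17 in tumour 15, and without tumour 1 that of tumour 5 became 11. The lowest counts became 16 in tumour 1 and 6 in tumour 14 without tumour 8, and 26 in tumour 8 and 5 in tumour 14 without tumour 15.

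Neuron-enriched regulators followed another pattern, being high in tumour 1 and low in tumours 8 and 15. In tumour 1, 13 of 15 lay above the median of the other 4 tumours (52.0% of tested genes), and 7 of 15 had their highest value (20.2% of tested genes). Their median deviation was 0.16 in tumour 1, 0.07 in tumour 5, -0.10 in tumour 8, -0.03 in tumour 14 and -0.12 in tumour 15. In tumour 15, 5 of 15 lay above the median of the other 4 (47.6% of tested genes), and 7 had their lowest value there (22.9% of tested genes). Tumour 8 held the lowest value of 6 (22.6% of tested genes). Elavl2 read 11.80, 11.66, 11.34, 11.58 and 11.66, Elavl4 read 11.92, 11.84, 11.53, 11.60 and 11.81, and both were highest in tumour 1 and lowest in tumour 8. Rbfox1 read 11.14, 11.08, 10.82, 10.89 and 10.87, with tumours 1 and 5 above the other tumours. Not every gene followed: Srrm3 (-0.05) and Khdrbs2 (-0.04) lay below the other tumours in tumour 1, Khdrbs3 deviated by 0.63 in tumour 15, and Ptbp2 deviated by 0.12 in tumour 8.

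The 6 markers of differentiating granule neurons had median deviations of 0.20, 0.11, -0.20, 0.03 and -0.11 in tumours 1, 5, 8, 14 and 15, the same order as the neuron-enriched regulators but for tumours 8 and 15. Their log2 summed levels were 16.42, 16.42, 16.14, 16.31 and 16.24. Of the 8 markers of mature granule neurons, 6 were instead highest in tumour 5, while 2 were highest in tumour 15 and 1 was lowest in tumour 5. Their median deviation was 1.11 in tumour 5 and -0.36 in tumour 1. Tumour 1 also held the lowest values of all 6 immediate early genes (median deviation -0.60, log2 summed levels of 15.80, 16.43, 16.42, 16.33 and 16.27) and of all 7 oligodendrocyte markers (median deviation -0.84). The 6 granule neuron progenitor markers had median deviations of -0.29, 0.03, -0.03, 0.10 and -0.01 in tumours 1, 5, 8, 14 and 15. Of them 3 were lowest in tumour 1, against 16.9% of the tested genes. Astrocyte (-0.26) and choroid plexus markers (-0.34) also had negative median deviations in tumour 1, while that of the endothelial markers was 0.22. The part of any of these sets in the values of the regulators was not tested.

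**Figure D5:**
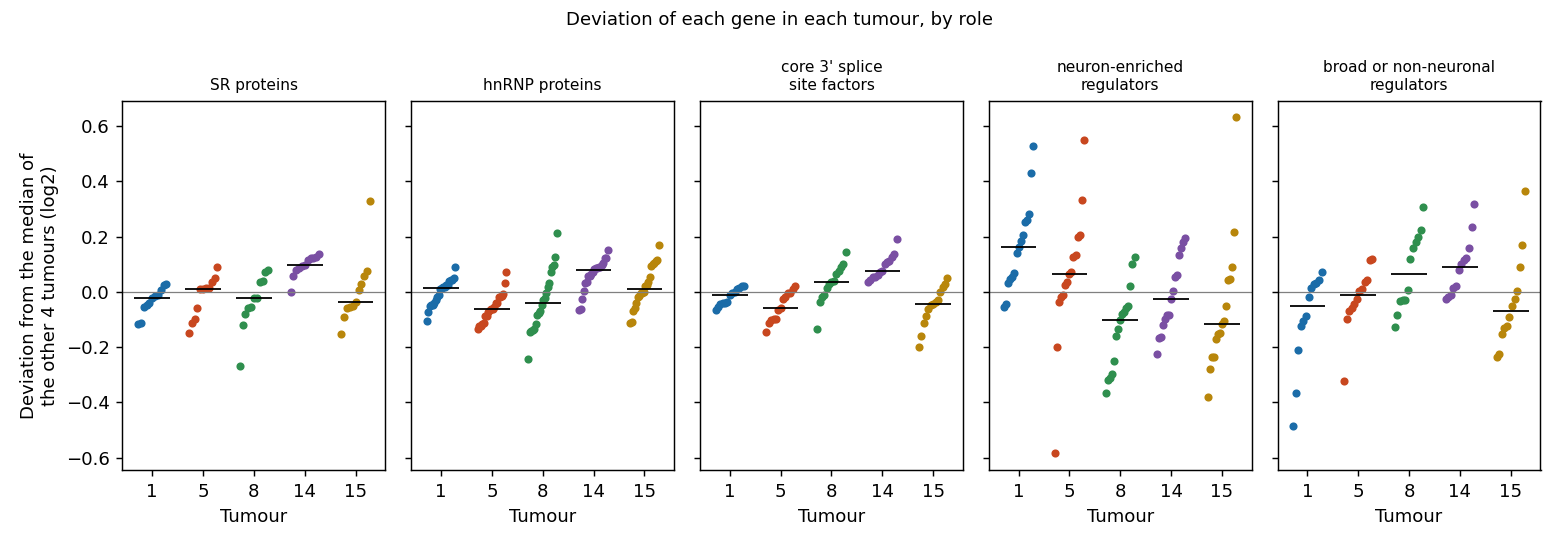
Deviation of each of the 71 genes in each tumour from the median of the other 4 tumours (log2), by role, with a bar at the median. In tumour 14 all SR genes and core factors lie above zero, and in tumour 1 13 of 15 neuron-enriched regulators do.

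Other genes of the splicing pathway, outside the chosen set, were described in 5 lists. A value above the other tumours' median in tumour 14, found for 50.2% of the tested genes, was found for 11 of the 12 snRNP proteins tested and for 12 of 13 tri-snRNP and catalytic proteins, such as Prpf8 (13.60 on the deposited scale). It was found for 8 of 9 SR protein kinases, 10 of 13 exon junction and decay factors and 16 of 25 other RNA-binding proteins. Among all genes with a mean of at least 10 the share was 63.7%. The other RNA-binding proteins, at 64%, were near that background. Among the kinases, which phosphorylate the SR domains, Clk1 read 11.62, 12.05, 11.76, 11.81 and 11.76, highest in tumour 5. Of the 9 kinases 6 were lowest in tumour 1, against 16.9% of the tested genes. No gene (0) of the snRNP, tri-snRNP, kinase, or exon junction and decay lists ranged over 2-fold, against 3.79% of the tested genes. Among the 25 other RNA-binding proteins 3 did, namely Igf2bp1 (2.17-fold), Igf2bp2 (2.30-fold) and Esrp1 (2.65-fold), none of them in the set of 71.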

How the data were processed

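Gene expression was measured by strand-specific mRNA sequencing of 5 tumour libraries. Per the submitters' processing notes, STAR 2.4.1, featureCounts from Subread 1.4.6, DESeq2 and the builds mm10 and GRCm38 were used. The annotation, the strand setting, the gene filter and the version of DESeq2 were not given in the sources used here. Values deposited by the authors are on a log2 scale, and reading them as regularised-log values rests on the table's short name in the labels. Of 7 value columns, 2 matched no sample and were not used, although they may have entered the transformation. No read counts were used, so depth and counting error are unknown.

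The 71 genes and all lists were chosen with earlier results of these data known. Role groups were assigned from general knowledge of the proteins. Levels per kb are the deposited log2 value minus log2 of the union exon length in kb (GENCODE M21, GRCm38), for the 97.5% of symbols that matched exactly 1 gene, including all 71. Pairs and role medians were compared within each tumour by a two-sided exact permutation test over the 32 sign patterns with Benjamini-Hochberg adjustment. Spread, and the tumour of each gene's highest and lowest value, were described over 13691 genes with a mean of at least 5, without a test. Values in every tumour could be given for pair genes, the 10 genes of largest SD, the 3 of highest mean, and the 2 highest and 1 lowest of each role per kb. Srsf6 was added after its values were seen. Shared sequence was counted as 50-base words of a gene's transcripts found in other genes. All 5 samples belong to 1 group, so no paired condition exists. Alternatives covered the length used, group means, filters on low values, centring of columns, the scaled median absolute deviation and leaving out each tumour. The steps were tested on simulated data. Tools were scipy 1.17.1, pandas 2.3.3, numpy 2.4.6 and Python 3.11.15.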

Additional observations from a re-analysis of the deposited data

Results flagged for a closer look

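In 1 of 26 gene pairs a single tumour stood apart from the other 4. For Srrm4 minus Srrm3, tumour 5 lay at 0.54 log2 units per kb and the other tumours between 0.86 and 0.93, so that its gap to the nearest tumour was 0.831 of the whole range, above the critical value of 0.71 for 5 samples. Srrm3 read 10.55 in tumour 5, its highest value, and Srrm4 read 11.53. Chance alone sets apart about 1 in 20 such groups. None of the 71 genes (0) and none of the 5 role medians (0) met the same criterion.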

How the results depend on the processing

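Among the pairs compared, gene length decided 4 orders. With no length subtracted Celf1 minus Celf2 was -1.36, Srsf3 minus Srsf7 0.64 and neuron-enriched minus broad regulators -0.39, and with the longest transcript Celf1 minus Celf2 was -1.18 and Celf4 minus Celf1 0.83. The other 178 of 182 values of gene pairs and 79 of 80 of role groups kept their direction and their side of 0.05, which no test here could pass (the smallest p is 0.125 with a tumour left out). Pairs of 1 direction numbered 24 to 25 and role pairs 10 with any tumour left out. The count of genes over 2-fold was 0 under every filter, centring and left-out tumour tried, and the median SD lay between 0.066 and 0.086. Leaving out single tumours moved counts of genes highest in a tumour to 11 to 18 in tumour 1, 7 to 12 in tumour 5, 12 to 24 in tumour 8 and 11 to 17 in tumour 15. The upper values of 18, 12, 24 and 17 all came without tumour 14. Counts lowest in a tumour became 10 to 16 in tumour 1, 18 to 26 in tumour 8 and 2 to 6 in tumour 14, where centring the columns gave 1. In tumour 14 the counts highest were 35 to 39 for all 71 genes, 7 to 11 for hnRNP genes (12 with centring, and 11 without tumour 8 or tumour 15) and 2 to 4 for neuron-enriched regulators (4 without tumour 5). The role counts, the added filter at a mean of 10 and the centring on such genes were chosen after seeing the data. No paired analysis was possible because all samples belong to 1 group. The unknown depth limits what can be said of weakly expressed genes such as Khdrbs2, Mbnl3, Srsf12 and Celf6.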
